A study of Mus musculus with 12 samples.

Results

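Heat shock and mitochondrial chaperones were followed as 10 genes among the 24411 gene symbols measured in NR5A1+ cells of fetal mouse gonads. The genes, and the wider gene lists used below, were chosen by name with earlier results of these data known. Counts over them describe the lists and do not test them. All 10 genes were listed in every library and passed the filter on low values, which kept 16133 genes for testing. Of the 10, 8 belong to the cytosolic heat shock system, and Hspd1 and Hspe1 belong to the mitochondrial matrix.

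The libraries came from 5 groups that all carried the Nr5a1-hCD271 allele, which tags NR5A1+ cells at their surface. Deferoxamine-treated XY gonads (Dfo XY, n = 3) were cultured for 19.2 h with 150 µM of this iron chelator. Untreated cultured XY gonads (control XY, n = 3) and untreated cultured XX gonads (control XX, n = 2) were set beside them, all begun at E10.8 with the neighbouring aorta, mesonephros and mesenchyme attached. Gonads labelled E11.5 gave an XY group (n = 2) and an XX group (n = 2), taken as uncultured from their titles although the same protocol text stands on them, and no Dfo XX group was analysed here. Nothing in the labels says that replicates came from separate embryos, and p-values speak only for the spread among these libraries.

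Molecular chaperones bind unfolded proteins and help them reach or keep their native shape. In the cytosol an HSP70 ATPase is loaded by a J-domain protein and emptied by a nucleotide exchange factor, and HSP90 takes over many of its clients. Small heat shock proteins hold unfolded clients for HSP70. The transcription factor HSF1 drives the inducible members by binding heat shock elements in their promoters. In mitochondria the HSP60 barrel and its HSP10 lid fold imported proteins. Loss of protein quality there is known to raise mitochondrial chaperones and proteases in many cell types.

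Some features of the libraries bear on every value that follows. The deposited unit is TPM, in which each level is divided by transcript length and every library sums to an equal total. A single RNA, Rpph1, took 19.5 to 23.6% of that total in Dfo XY, 15.3 to 20.3% in control XY and 6.96 to 7.2% in control XX. Its share was 8.57 to 12.2% in the E11.5 libraries. The median log2 change of all genes was not 0 in every comparison, and it is given beside the counts. Replicates 1 and 2 lay closer to each other than to replicate 3 in both Dfo XY (median absolute log2 difference 0.084, against 0.189 and 0.193) and control XY (0.0711, against 0.183 and 0.192). Dfo XY replicates 1 and 2 also held Xist, an RNA of XX cells, at 13.6 and 24.6 TPM, against 0.01 to 0.18 TPM in control XY and 166 to 175 TPM in control XX. Calls of the 10 genes that ended when replicates 1 and 2 were averaged or these Dfo XY libraries were left out are given beside the gene. Leaving out those 2 libraries leaves Dfo XY with 1 library, replicate 3, whose spread is then assumed to be that of the other groups. Of 8 gonadal somatic markers, 5 were lower in Dfo XY, with a summed level of 737.5 to 826.4 TPM in Dfo XY and 965.6 to 1125 TPM in control XY. Of 7 coelomic epithelium markers tested, 4 were lower in Dfo XY. Their sum was 254.3 to 339 TPM in Dfo XY and 449.2 to 556.5 TPM in control XY. Of 8 markers each, 2 of mesonephric epithelium were lower (sums of 48.03 to 87.17 TPM in Dfo XY and 92.55 to 107.5 TPM in control XY), 1 of germ cells was lower (18.1 to 27.58 TPM in Dfo XY and 31.18 to 33.31 TPM in control XY), and 2 of neural crest and neurons were lower and 1 higher. No marker of endothelial cells, erythroid cells or macrophages passed. By the same test 4.98% of all genes were higher and 10.5% lower in Dfo XY, and 1 lower marker of 8 is near that lower share. The part of these markers in the chaperone values was not tested, and in bulk RNA fewer cells of a type and less RNA per cell cannot be told apart.

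The promoter sequences of the genes differ in their heat shock elements, and those of 4 genes are shown, a nearly identical pair and 2 genes whose windows hold the 3-unit form. RefSeq windows on GRCm38.p6 reach from 250 bases before to 50 bases after a transcription start, and 8 of the 10 genes had a window. Hspa8 and Hsp90aa1 had none. The element was searched on both strands as GAANNTTCNNGAA or TTCNNGAANNTTC for 3 units, and as GAANNTTC or TTCNNGAA for 2 units, so that a 3-unit match also counts among 2-unit matches. The lines give the 250 bases before the start, 5′ to 3′ on the gene's own strand, and the capitals mark element matches. The regions are chr17:34972157-34972406 on the minus strand for Hspa1a, chr17:34959239-34959488 on the minus strand for Hspa1b, chr1:55087898-55088147 on the plus strand for Hspe1 and chr5:149636337-149636586 on the minus strand for Hsph1.
Hspa1a: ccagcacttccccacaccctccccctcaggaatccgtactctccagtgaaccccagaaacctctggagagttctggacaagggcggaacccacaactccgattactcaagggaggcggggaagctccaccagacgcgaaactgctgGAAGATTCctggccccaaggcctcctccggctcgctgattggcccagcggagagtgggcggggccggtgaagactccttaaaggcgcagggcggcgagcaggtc
Hspa1b: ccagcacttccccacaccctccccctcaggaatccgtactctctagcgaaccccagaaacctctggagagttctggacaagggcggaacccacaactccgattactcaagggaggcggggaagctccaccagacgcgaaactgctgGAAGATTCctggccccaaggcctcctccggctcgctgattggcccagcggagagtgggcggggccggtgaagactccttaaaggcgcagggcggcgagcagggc
Hspe1: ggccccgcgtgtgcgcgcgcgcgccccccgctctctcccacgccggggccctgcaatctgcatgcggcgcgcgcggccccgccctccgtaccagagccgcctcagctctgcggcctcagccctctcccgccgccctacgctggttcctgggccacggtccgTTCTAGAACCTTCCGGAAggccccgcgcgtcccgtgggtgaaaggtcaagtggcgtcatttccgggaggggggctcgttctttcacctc
Hsph1: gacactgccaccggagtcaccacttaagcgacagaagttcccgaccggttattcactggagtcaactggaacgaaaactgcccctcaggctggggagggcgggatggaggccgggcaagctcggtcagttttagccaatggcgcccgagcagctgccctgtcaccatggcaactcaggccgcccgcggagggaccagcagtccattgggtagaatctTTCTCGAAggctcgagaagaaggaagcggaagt
The Hspa1a and Hspa1b stretches were identical at 246 of 248 aligned positions, and each held a 2-unit match whose first base lay 104 bases before the start. The 3-unit form occurred in 0.603% of all 32851 promoter windows, and in those of Hspe1, Hspd1 and Hsph1 here. The run of capitals in the Hspe1 line holds 2 overlapping 3-unit matches, which begin 89 and 84 bases before the Hspe1 start. Hspd1 and Hspe1 are divergent neighbours, and the same bases lie 144 and 139 bases before a second annotated start of Hspd1 on the other strand. The 3-unit match of Hsph1 began 37 bases after its start, outside the line shown, and the capitals in its line are a 2-unit match 33 bases before it. The 2-unit form, found in 15.1% of all windows, was also present for Hspb1, 117 and 97 bases before its start, and for Bag3, 43 bases after its start. Neither Dnajb1 window held a match, which says only that these letters are not in those windows. The core of the hypoxia element, ACGTG or GCGTG, lay in a window of 5 of the 8 genes, which had 11 windows between them. It lay in 43.8% of all windows, a share per window that cannot be set directly against a count of genes.

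With deferoxamine, chaperone genes moved in both directions. Hspa1b and Dnajb1, an inducible HSP70 and its J-domain partner, were higher in Dfo XY than in control XY. Hsph1, Bag3 and Hspa8, which are exchange factors for HSP70 and its constitutive form, were lower. The mitochondrial pair Hspd1 and Hspe1, the inducible HSP90 gene Hsp90aa1, the small heat shock gene Hspb1 and Hspa1a did not pass the test. By limma with Benjamini-Hochberg adjustment over all genes (called below 0.05), 2 of 10 genes were higher, where 4.98% of all genes tested were. Of the 10, 3 were lower, where 10.5% of all genes were. The median log2 change was -0.02 over the 10 genes and -0.17 over all genes tested. The balance of calls over all genes moved with scaling. It was 803 higher and 1695 lower with TPM as deposited, and 1521 higher and 1023 lower with median-of-ratios scaling, under which 2 of the 10 genes were higher and 1, Hsph1, was lower.

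**Figure D1:**
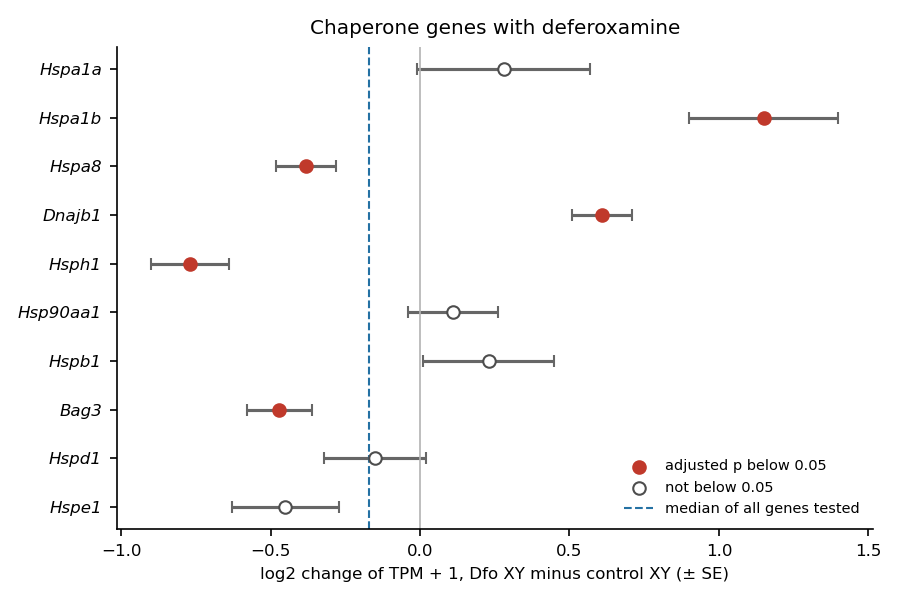
Log2 change of TPM + 1, Dfo XY minus control XY (n = 3 each), for each chaperone gene, with its SE from limma as bars. Filled points passed an adjusted p below 0.05, and the dashed line is the median of all genes tested at -0.17. Hspa1b at 1.15 and Dnajb1 at 0.61 stand to the right, and Hsph1 at -0.77 stands farthest to the left.

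Hspa1b (chr17:34956436-34959238) encodes a stress-inducible HSP70 that is kept low in unstressed cells. It had 14.5, 13.8 and 29.3 TPM in the Dfo XY libraries, against 7.37, 8.15 and 7.33 TPM in the control XY libraries. All 3 Dfo XY libraries lay above all control XY libraries, and replicate 3 was the highest. Hspa1b rose by 1.15 ± 0.25 (SE) on the log2 scale, 2.22-fold on the TPM + 1 scale (limma, adjusted p = 0.00929). It passed the test in all 22 alternatives, with changes of 0.82 to 1.81, the smallest without Dfo XY replicate 3.

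Hspa1a (chr17:34969190-34972156) encodes a nearly identical HSP70 and lies 9951 bases from Hspa1b. It had 8.15, 6.63 and 14.1 TPM in Dfo XY, against 6.07, 7.42 and 8.92 TPM in control XY, and the groups overlapped. The log2 change was 0.28 ± 0.29 (limma, adjusted p = 0.567), and without Dfo XY replicate 3 it was -0.01. The longest transcripts of the pair were 99.1% identical over 2200 aligned positions. Of all 100-base stretches of the Hspa1a transcript, 47.1% occurred unchanged in that of Hspa1b, so how the authors' quantification split reads between the pair is uncertain. Summed over both genes, the level was 22.7, 20.4 and 43.3 TPM in Dfo XY, against 13.4, 15.6 and 16.2 TPM in control XY. The summed level did not overlap between groups, with a log2 change of 0.81 (limma, adjusted p = 0.0314).

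Dnajb1 (chr8:83608193-83612653) encodes the J-domain protein that delivers clients to HSP70 and starts its ATPase. It had 55, 48.1 and 59.9 TPM in Dfo XY, against 34.1, 36.2 and 35.2 TPM in control XY. The groups did not overlap, and the control XY libraries lay close together. Dnajb1 rose by 0.61 ± 0.1 on the log2 scale, 1.52-fold (limma, adjusted p = 0.0019), and passed in all 22 alternatives with changes of 0.54 to 0.76.

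Hsph1 (chr5:149614287-149636376) encodes HSP110, a distant HSP70 relative that exchanges the nucleotide of HSP70. It had 36.7, 36.6 and 45.1 TPM in Dfo XY, against 63, 60.8 and 81.6 TPM in control XY. The groups were wide apart, and in each of them replicate 3 was the highest. Hsph1 fell by 0.77 ± 0.13 on the log2 scale, 1.71-fold (limma, adjusted p = 0.00165). It passed in 21 of 22 alternatives. Without the 2 Dfo XY libraries that held Xist the change, which then rests on 1 Dfo XY library, was -0.58 (limma, adjusted p = 0.0981, from a range of 0.000394 to 0.0981 over the alternatives).

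Bag3 (chr7:128523616-128546981) encodes a co-chaperone that exchanges the nucleotide of HSP70, binds small heat shock proteins and hands clients to autophagy. It had 56.6, 60.3 and 48.2 TPM in Dfo XY, against 72.5, 76.8 and 80.1 TPM in control XY, without overlap. Bag3 fell by 0.47 ± 0.11 on the log2 scale, 1.39-fold (limma, adjusted p = 0.0158). The call was lost in 5 of 22 alternatives, over which the adjusted p ran between 0.0136 and 0.0954. These were median-of-ratios scaling, the averaging of replicates 1 and 2, a fit with no variance trend, and the omission of control XY replicate 2 or of control XY replicate 3.

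Hspa8 (chr9:40800984-40810087) encodes HSC70, the constitutive cytosolic HSP70, and was the most abundant of the 10 genes in every group. It had 1878, 1799 and 2091 TPM in Dfo XY, against 2400, 2342 and 2764 TPM in control XY. The Dfo XY libraries lay below the control XY libraries without overlap. The change on the log2 scale was -0.38 ± 0.1, 1.3-fold lower (limma, adjusted p = 0.0237), beside a median of -0.17 over all genes. This was the least stable of the 5 calls. It was lost in 11 of 21 alternatives, among them the averaging of replicates 1 and 2, the omission of the 2 libraries that held Xist (-0.26 from 1 Dfo XY library), and 4 that left out a library (control XY replicate 1 or 3, Dfo XY replicate 1 or 2). The limma adjusted p ran between 0.00356 and 0.38.

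Hsp90aa1 (chr12:110690605-110702728), the stress-inducible cytosolic HSP90, had 674, 678 and 918 TPM in Dfo XY, against 627, 595 and 892 TPM in control XY. Replicate 3 was the highest in both groups, which overlapped, and the log2 change was 0.11 ± 0.15 (limma, adjusted p = 0.676). Hspb1 (chr5:135887919-135889563), a small heat shock protein that binds unfolded clients without ATP, had 42.2, 55.8 and 35.3 TPM in Dfo XY, against 42.2, 39 and 30.9 TPM in control XY. Its groups overlapped too, with a log2 change of 0.23 ± 0.22 (limma, adjusted p = 0.543). Single libraries moved the Hspb1 value, to 0.06 without Dfo XY replicate 2, to 0.38 when replicate 3 of Dfo XY was left out and to 0.1 when that of control XY was.

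**Figure D2:**
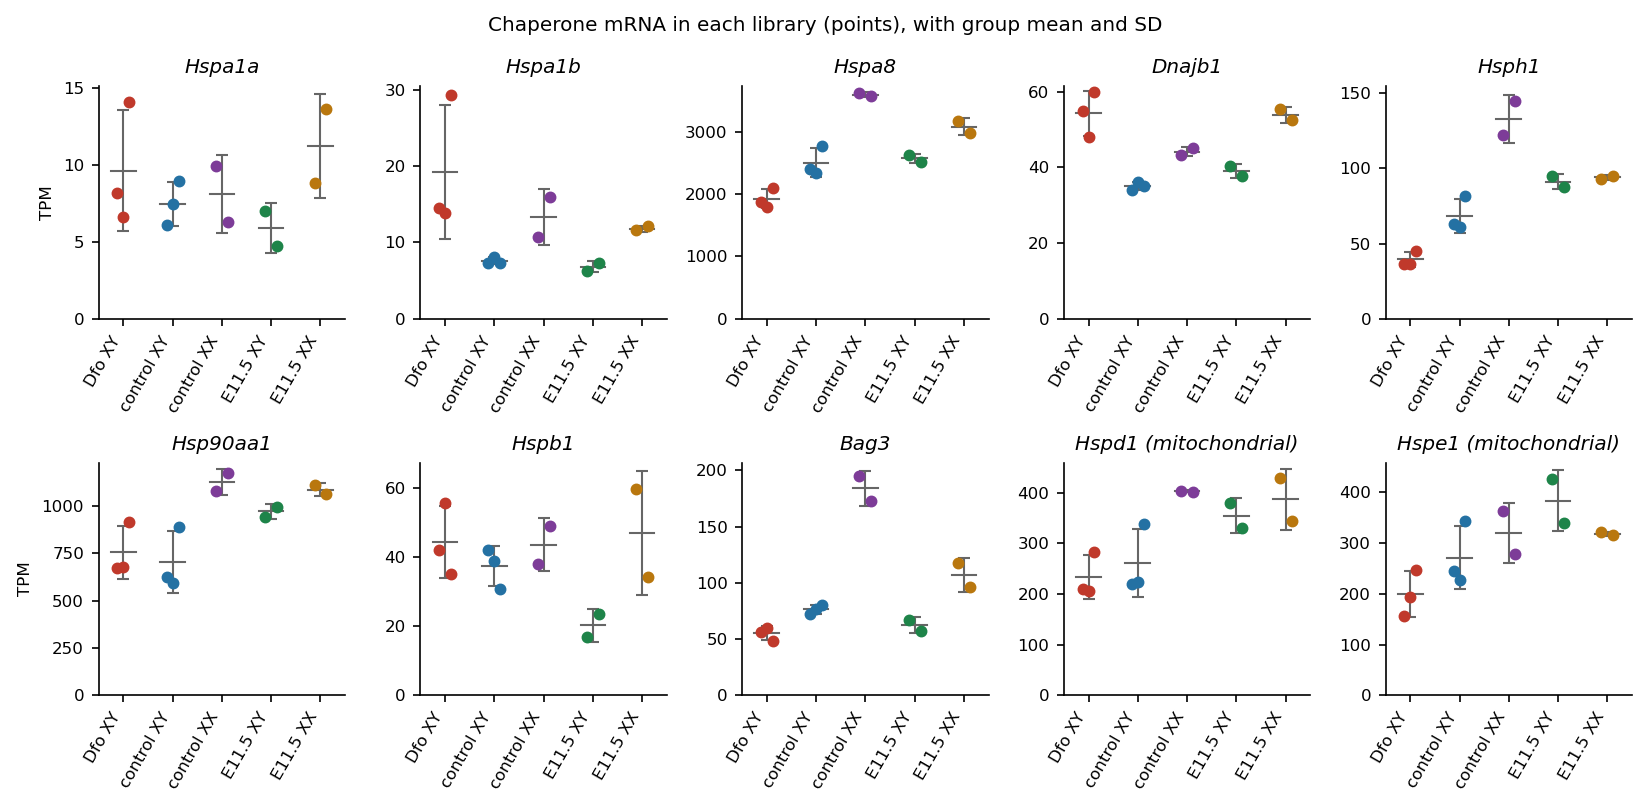
TPM of each chaperone gene in every library (points), by group, with the group mean and SD as lines (n = 3 for Dfo XY and control XY, n = 2 for the others, where the SD rests on 2 libraries). Dfo XY lies above control XY for Hspa1b and Dnajb1 and below it for Hspa8, Hsph1 and Bag3, and control XX is the highest group for Hspa8, Hsph1, Hsp90aa1, Bag3 and Hspd1.

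The mitochondrial chaperonin genes did not pass the test with deferoxamine. Hspd1 (chr1:55077835-55088243) encodes the HSP60 barrel. It had 209, 206 and 283 TPM in Dfo XY, against 220, 223 and 339 TPM in control XY, and the groups overlapped. The log2 change of -0.15 ± 0.17 (limma, adjusted p = 0.606) was close to the shift of all genes, and its sign differed between alternatives, with values of -0.3 to 0.15. Hspe1 (chr1:55088132-55091307) encodes the HSP10 lid. It had 156, 194 and 247 TPM in Dfo XY, against 244, 226 and 343 TPM in control XY, and the groups overlapped through replicate 3 of Dfo XY. The log2 change was -0.45 ± 0.18 (limma, adjusted p = 0.124). With the replicate number as a block Hspe1 passed (-0.45; limma, adjusted p = 0.033, from a range of 0.033 to 0.854 over the alternatives), which makes 4 genes lower instead of 3. It also passed without Dfo XY replicate 3, at -0.61 (limma, adjusted p = 0.0446), and shrank to -0.27 with replicate 3 of control XY left out and to -0.28 with replicate 1 of Dfo XY left out. The 2 genes overlap by 112 bases on opposite strands, and the sources used here do not say whether strand was used in counting.

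Taken within each library, the level of the cytosolic genes relative to the mitochondrial pair does not depend on how TPM was scaled, apart from the added 1. The mean log2(TPM + 1) of the 8 cytosolic genes minus that of Hspd1 and Hspe1 was -1.29, -1.44 and -1.55 in Dfo XY, against -1.72, -1.64 and -2.1 in control XY. The Dfo XY values were the less negative, without overlap, and the group means were -1.43 ± 0.13 in Dfo XY and -1.82 ± 0.25 in control XY (SD, n = 3 each). The difference of 0.39 was not tested. It was 0.25 to 0.48 when single libraries were left out. Its parts, which do depend on scaling, each overlapped between the groups. The cytosolic mean was 6.22, 6.21 and 6.5 in Dfo XY, against 6.15, 6.18 and 6.31 in control XY. That of Hspd1 and Hspe1 was 7.51, 7.65 and 8.05 in Dfo XY, against 7.86, 7.82 and 8.42 in control XY. The cytosolic genes moved in both directions, and the difference does not mean that all 8 rose.

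A wider list covered other mitochondrial quality-control genes. Of 23 further mitochondrial chaperones, proteases and import motor genes, 2 (8.7%) were higher and 1 (4.35%) was lower in Dfo XY, with a median log2 change of -0.12. Of all genes tested, 4.98% were higher and 10.5% lower. Lonp1, the ATP-driven protease of the matrix, had 206, 220 and 205 TPM in Dfo XY, against 86.4, 80.2 and 97.2 TPM in control XY. The groups were far apart, the log2 change was 1.25 ± 0.099, and the limma adjusted p was 5.64e-06. Hspa9, the matrix HSP70 that pulls in imported proteins and passes them to HSP60, had 369, 410 and 427 TPM in Dfo XY, against 218, 217 and 314 TPM in control XY. It also did not overlap between groups, with a log2 change of 0.7 ± 0.13 (limma, adjusted p = 0.00403). Without the 2 Dfo XY libraries that held Xist the Hspa9 change was larger, 0.79 from 1 Dfo XY library (limma, adjusted p = 0.0501, from a range of 0.000185 to 0.0501 over the alternatives). The ratio of Hspa9 to Hspd1, chosen after their values were seen, was 1.76, 1.99 and 1.51 in Dfo XY, against 0.99, 0.976 and 0.926 in control XY. Oma1, an inner membrane protease, was lower by a log2 change of -0.81 ± 0.25 (limma, adjusted p = 0.0487), a call lost in 17 of 22 alternatives.

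**Figure D3:**
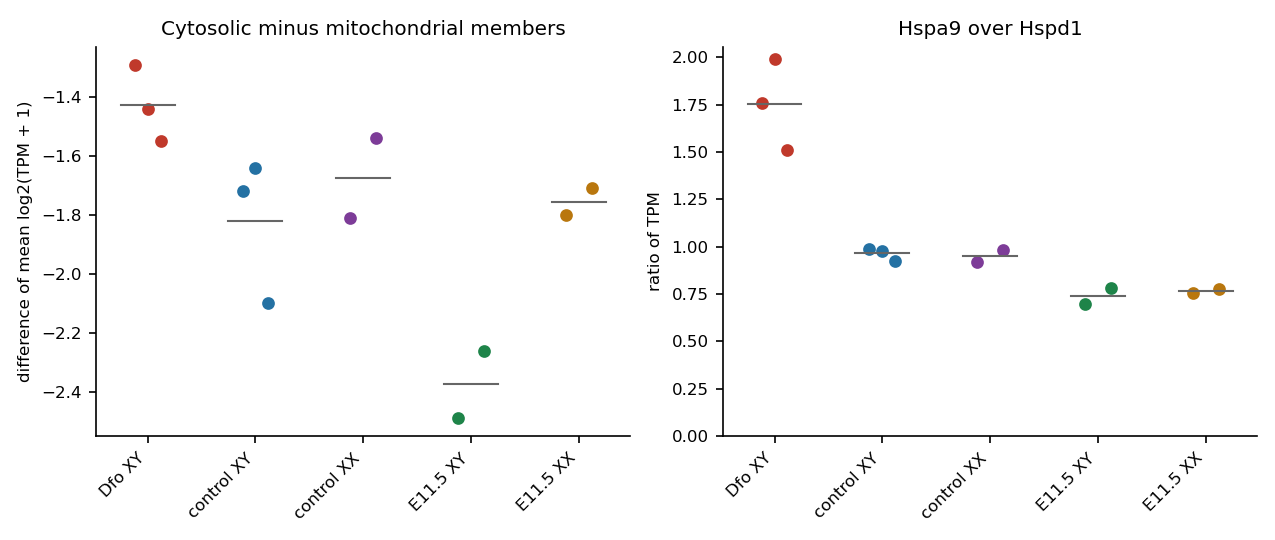
Left, mean log2(TPM + 1) of the 8 cytosolic genes minus that of Hspd1 and Hspe1 in each library. Right, the TPM of Hspa9 over that of Hspd1. Points are libraries and lines are group means. On the left Dfo XY has the highest group mean, -1.43, but its lowest library (-1.55) lies below 1 control XX library (-1.54). On the right the Dfo XY libraries lie above all others, at 1.51 to 1.99.

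Among 37 other cytosolic chaperones and co-chaperones tested, 1 was higher and 4 were lower in Dfo XY, where 4.98% and 10.5% of all genes were. The share of the 37 called lower was thus near that of all genes. Their median log2 change of -0.17 was also that of all genes. The higher gene was Hspa13, an HSP70 relative of microsomes rather than the cytosol. It had 33.4, 33.6 and 40 TPM in Dfo XY, against 23.8, 23.4 and 26.5 TPM in control XY, a log2 change of 0.52 ± 0.14 (limma, adjusted p = 0.0218). The lower genes were the HSP90 co-chaperones Fkbp4 (-0.58 ± 0.15; limma, adjusted p = 0.0217) and Ahsa1 (-0.53 ± 0.14; limma, adjusted p = 0.0276), the ubiquitin ligase Stub1 (-0.37 ± 0.1; limma, adjusted p = 0.0267) and Hspa12a at -0.57. Hspa12a was named after its values were seen. Each of Hspa13, Fkbp4, Ahsa1 and Stub1 lost its call in 5 to 10 of 22 alternatives. With replicates 1 and 2 averaged, all 4 calls ended with changes no smaller than before, at 0.53 for Hspa13, -0.61 for Fkbp4, -0.58 for Ahsa1 and -0.39 for Stub1. With the 1 Dfo XY library that remained without the 2 that held Xist they also ended, and there Hspa13 was larger at 0.69 while Fkbp4, Ahsa1 and Stub1 were smaller at -0.33, -0.36 and -0.24. Without control XY replicate 3, Ahsa1 was at -0.35. With median-of-ratios scaling, 3 (8.11%) of the 37 were higher and 1 (2.7%) was lower, where 9.44% and 6.35% of all genes were. The constitutive HSP90 gene Hsp90ab1 averaged 2985 ± 347 TPM in Dfo XY and 3100 ± 540 TPM in control XY (SD, n = 3 each), with a log2 change of -0.05 ± 0.13 (limma, adjusted p = 0.852).

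The mRNAs of the heat shock factors did not pass the test. Hsf1, the main regulator of the response, averaged 23.7 ± 3.24 TPM in Dfo XY and 24.6 ± 2.65 TPM in control XY (SD, n = 3 each), with a log2 change of -0.05 ± 0.18 (limma, adjusted p = 0.881). Hsf2 averaged 36.6 ± 2.95 TPM in Dfo XY and 37.9 ± 1.67 TPM in control XY (SD, n = 3 each), with a log2 change of -0.05 ± 0.15 (limma, adjusted p = 0.856). An mRNA level does not report the activity of these factors. Of 5 factors and regulators tested, out of 8 listed, 1 (20%) was lower, where 10.5% of all genes were. It was the HSF1-binding-protein relative Hsbp1l1 at -1.3 ± 0.39 (limma, adjusted p = 0.04). Its levels were low, 0.98 to 2.04 TPM in Dfo XY and 3.8 to 7.17 TPM in control XY. The Hsbp1l1 call was lost in 13 of 22 alternatives, over which the limma adjusted p ran between 0.0208 and 0.14. Of 14 subunits of the cytosolic chaperonin TRiC and of prefoldin, which brings it actin and tubulin, 0 were higher and 2 (14.3%) were lower. Of all genes tested, 4.98% were higher and 10.5% lower. The 2 were Pfdn5, by a log2 change of -0.44 ± 0.088 (limma, adjusted p = 0.00565), and Pfdn6, by -0.7 ± 0.18 (limma, adjusted p = 0.0197). With 1 Dfo XY library, without the 2 that held Xist, Pfdn5 was at -0.46 (limma, adjusted p = 0.0688, from 0.00543 to 0.0719 over the alternatives), and Pfdn6 was at -0.47 (limma, adjusted p = 0.349, from 0.0131 to 0.349).

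**Figure D4:**
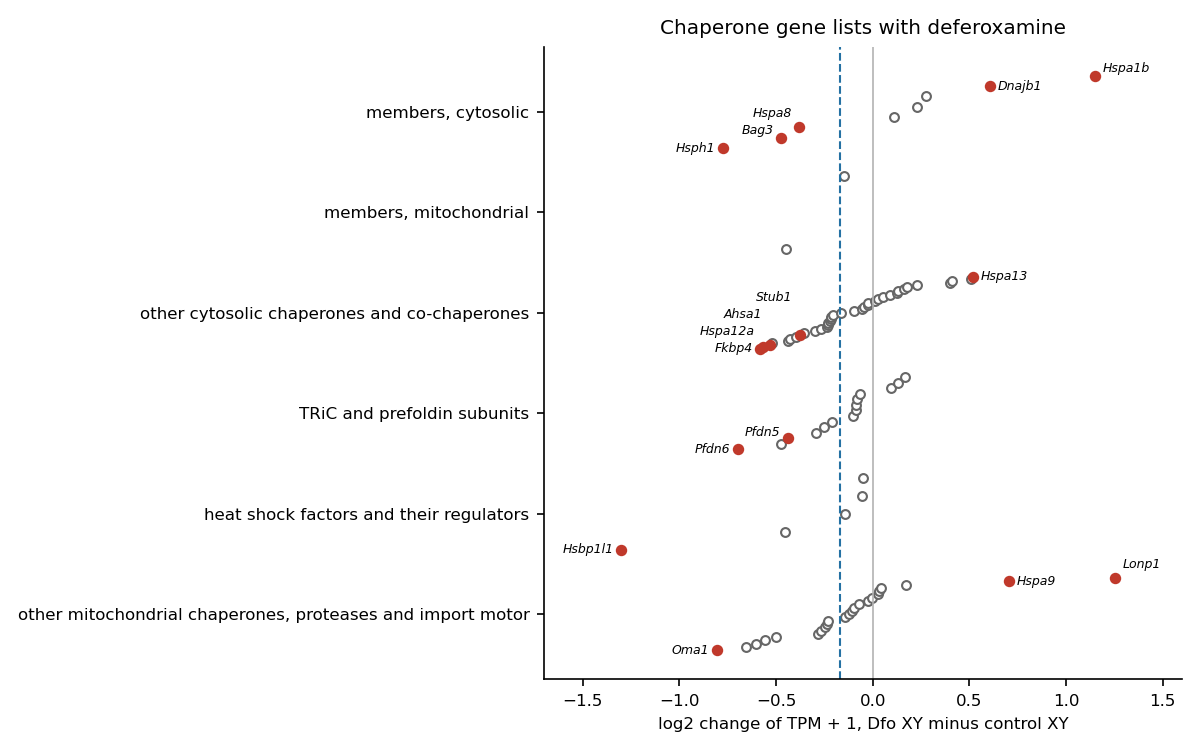
Log2 change of TPM + 1, Dfo XY minus control XY (n = 3 each), for each gene tested in 6 chaperone lists. Filled, named points passed an adjusted p below 0.05, and the dashed line is the median of all genes tested. Most genes lie near the line, and Lonp1, Hspa1b, Hspa9 and Dnajb1 reach farthest to the right.

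In untreated culture, 5 of the 10 chaperone genes were lower in XY than in XX. The control XY libraries are those set against Dfo XY above. All 10 log2 changes of control XY against control XX were negative, with a median of -0.6, where the median of all genes was -0.22. The 5 of 10 called lower stand where 22.2% of all genes tested were, and 0 were called higher, where 2.97% were. At an unadjusted p below 0.05, limma gave 7 lower and 0 higher, where 6028 of the 16133 genes tested passed in either direction. The direction was not kept by scaling for every gene. With median-of-ratios scaling 6 of the 10 were negative, 2 were called lower, and the calls over all genes were 529 higher and 499 lower, against 479 higher and 3585 lower with TPM as deposited. The 2 genes called under that scaling were Bag3 and Hsph1.

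Bag3 differed most. It had 72.5, 76.8 and 80.1 TPM in control XY, against 195 and 173 TPM in control XX, with no library of one sex near the other. Its log2 change was -1.26 ± 0.13, 2.39-fold lower in control XY (limma, adjusted p = 0.000287), and it passed in all 22 alternatives with changes of -1.34 to -0.87. Hsph1 had 63, 60.8 and 81.6 TPM in control XY, against 122 and 145 TPM in control XX, also without overlap. Its log2 change was -0.96 ± 0.14 (limma, adjusted p = 0.00129), and it passed in all 22 alternatives with changes of -1.09 to -0.53.

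The other 3 calls moved with the settings. Hspa8 had 2400, 2342 and 2764 TPM in control XY, against 3623 and 3561 TPM in control XX, a log2 change of -0.53 ± 0.11 (limma, adjusted p = 0.00621). With median-of-ratios scaling it was -0.19 (limma, adjusted p = 0.235, from a range of 0.00246 to 0.235 over the alternatives). Hsp90aa1 had 627, 595 and 892 TPM in control XY, against 1080 and 1178 TPM in control XX, and Hspd1 had 220, 223 and 339 TPM in control XY, against 404 and 401 TPM in control XX. Neither overlapped between the sexes, and the log2 changes were -0.7 ± 0.17 for Hsp90aa1 (limma, adjusted p = 0.0114) and -0.66 ± 0.19 for Hspd1 (limma, adjusted p = 0.0236). The Hsp90aa1 call was lost in 4 of 22 alternatives and the Hspd1 call in 10 of 22, for both with replicates 1 and 2 of control XY averaged and without control XX replicate 2, and for Hspd1 also without control XX replicate 1 or with replicate 1 or 2 of control XY left out. Markers of neural crest and neurons also differed, 7 of 8 being higher in control XY, with sums of 74.9 to 170.9 TPM in control XY and 30.54 to 41.78 TPM in control XX. Gonadal somatic markers were lower in control XY for 6 of 8, with sums of 965.6 to 1125 TPM in control XY and 1730 to 1779 TPM in control XX. Markers of erythroid cells (4 of 10), macrophages (3 of 8) and mesonephric epithelium (4 of 8) were also higher in control XY, as was 1 of 8 endothelial markers. Of 7 coelomic epithelium markers, 2 were lower, with sums of 449.2 to 556.5 TPM in control XY and 575.7 to 599.4 TPM in control XX. That share is near the 22.2% of all genes tested that were lower in control XY, where 2.97% were higher. Erythroid sums were 328.8 to 2539 TPM in control XY and 240.3 to 268.9 TPM in control XX, with Hbb-bs listed at 0 in both. The part of all these markers in the chaperone values was not tested.

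Other chaperone genes were also lower in control XY. Of 37 other cytosolic chaperones and co-chaperones, 21 (56.8%) were lower and 0 higher in control XY, where 22.2% of all genes were lower, and 3 were lower and 1 higher with median-of-ratios scaling. They were led by Hspa13 at -0.92 ± 0.15, Stip1, which bridges HSP70 and HSP90, at -0.66 ± 0.12, the HSP90 co-chaperone Ptges3 at -0.54 ± 0.095 and the J-domain gene Dnajb4 at -1.02 ± 0.19 (limma, adjusted p of 0.00193, 0.00243, 0.0025 and 0.00307 in that order). Of 14 TRiC and prefoldin subunits, 7 were lower and 1 was higher, and 0 were lower and 1 higher with that scaling, with Cct8, Cct4, Cct7 and Cct6a between -0.51 and -0.41. These 4 shrank to between -0.18 and -0.05 at the smallest over the alternatives. Of 23 other mitochondrial genes, 7 (30.4%) were lower and 0 higher, a share near the 22.2% of all genes, and 0 were lower and 1 higher with that scaling. The 7 included Lonp1 at -0.62 ± 0.11, Afg3l1 at -0.8 ± 0.16, Dnaja3 at -0.77 ± 0.16, Pmpca at -0.56 ± 0.13 and Hspa9 at -0.64 ± 0.15 (limma, adjusted p between 0.00266 and 0.00977). Over the alternatives the smallest changes were -0.55 for Hspa13, -0.3 for Stip1, -0.21 for Ptges3, -0.63 for Dnajb4, -0.19 for Lonp1, -0.49 for Afg3l1, -0.36 for Dnaja3, -0.14 for Pmpca and -0.3 for Hspa9. Hspa13 kept its call in all 22, Dnajb4 lost it in 1, Stip1, Ptges3, Lonp1 and Afg3l1 in 2 each, Dnaja3 in 3, Pmpca in 4 and Hspa9 in 6.

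In E11.5 gonads Bag3 alone among the 10 was called between the sexes. It had 67.3 and 57.5 TPM in E11.5 XY, against 118 and 96.6 TPM in E11.5 XX, a log2 change of -0.77 ± 0.14 (limma, adjusted p = 0.0221). This is 1 of 10 lower, where 1.2% of all genes tested were, and 0 of 10 higher, where 1.09% were. The median log2 change was -0.36 over the 10 genes and 0 over all genes tested. Of the 10 changes 9 were negative, and 8 were with median-of-ratios scaling. At an unadjusted p below 0.05, limma gave 5 lower and 0 higher, where 3156 of the 16133 genes tested passed in either direction. The XX libraries held more Bag3 mRNA than the XY libraries both at E11.5 and in culture. The E11.5 call was lost in 4 of 22 alternatives, with an adjusted p of up to 0.264 when E11.5 libraries were fitted alone and losses with replicates 1 and 2 of Dfo XY and control XY averaged and without E11.5 XY replicate 2 or E11.5 XX replicate 1. Hspb1 had 16.9 and 23.7 TPM in E11.5 XY, against 59.8 and 34.3 TPM in E11.5 XX. The groups did not overlap, but the XX libraries differed widely, and the log2 change of -1.14 ± 0.28 did not pass (limma, adjusted p = 0.0509). Hsph1 overlapped between the sexes at this stage, with 94.9 and 87.8 TPM in E11.5 XY and 92.9 and 95.1 TPM in E11.5 XX. Of 7 coelomic epithelium markers tested, 1 was lower in E11.5 XY, and no marker of the other cell types passed. Gonadal somatic sums were 1188 to 1321 TPM in E11.5 XY and 1396 to 1567 TPM in E11.5 XX. In that order, endothelial sums were 226.6 to 244.4 and 320.5 to 370.8 TPM, and erythroid sums were 2599 to 3370 and 1328 to 1852 TPM. The part of these markers in the chaperone values was not tested.

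**Figure D5:**
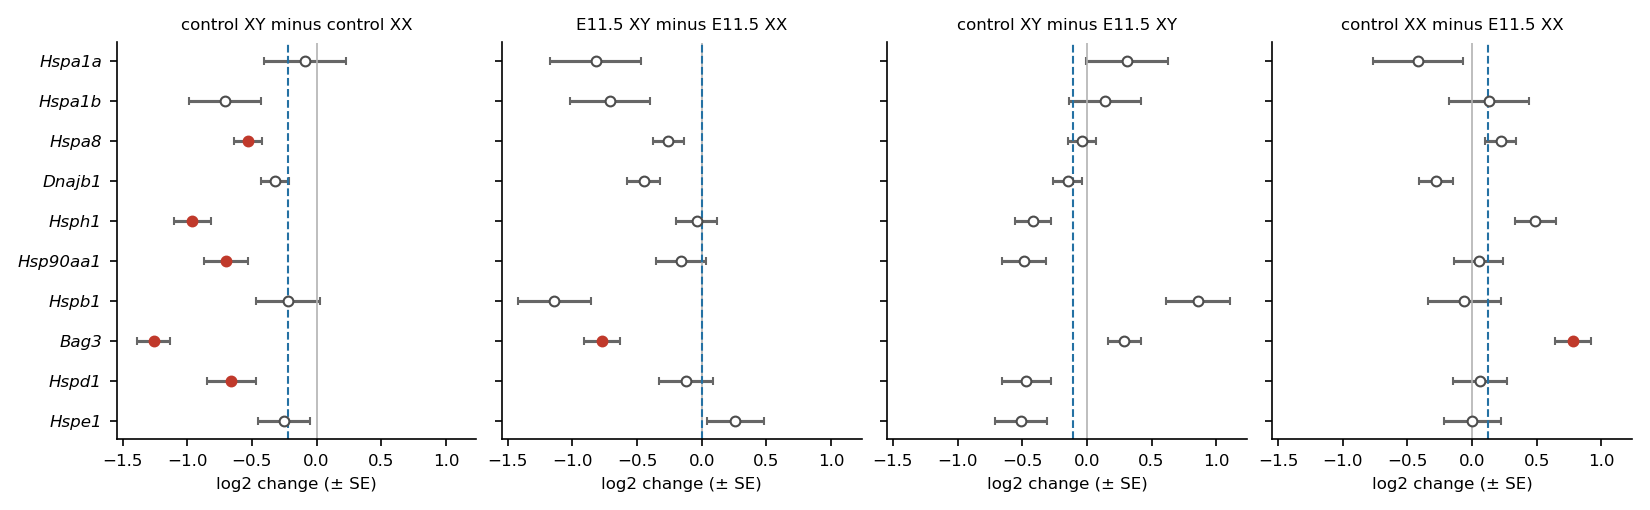
Log2 change of TPM + 1 with its SE from limma for each chaperone gene in 4 comparisons, XY minus XX in culture and at E11.5, and control culture minus E11.5 in XY and in XX (n = 3 for control XY, n = 2 for the other groups). Filled points passed an adjusted p below 0.05, and dashed lines are medians of all genes. Bag3 is filled in 3 of the 4 panels.

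Cell-type markers differed too between control culture and E11.5. In XX, 5 of 8 endothelial markers were lower in culture, with sums of 116.3 to 133.8 TPM in control XX and 320.5 to 370.8 TPM in E11.5 XX. Erythroid markers were lower for 4 of 10, with sums of 240.3 to 268.9 TPM in control XX and 1328 to 1852 TPM in E11.5 XX. In XX, 2 of 7 coelomic, 1 of 8 gonadal somatic and 1 of 8 macrophage markers were higher, and 1 of 8 germ cell markers was lower. In XY, 3 of 8 neural crest and neuron markers were higher (74.9 to 170.9 TPM in control XY and 32 to 32.66 TPM in E11.5 XY), as were 3 of 8 macrophage markers (68.42 to 118 TPM in control XY and 20.42 to 41.23 TPM in E11.5 XY), 1 coelomic and 1 germ cell marker, and 2 of 8 endothelial markers were lower. Over all genes tested, 7.36% were higher and 1.71% lower in cultured XX, and 2.62% were higher and 3.04% lower in cultured XY. In XX, 1 higher marker of 8 is near the share of all genes. What part these markers had in the chaperone values was not tested.

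Set against E11.5 gonads of the same sex, few of the 10 genes were called in control culture. In XY, 0 were called higher and 0 lower by limma, where 2.62% and 3.04% of all genes tested were. At an unadjusted p below 0.05 the numbers were 2 higher and 4 lower, where 3786 of the 16133 genes tested passed in either direction. The median over all genes was -0.11, and their calls of 422 higher and 491 lower became 617 higher and 425 lower with median-of-ratios scaling. Hspb1 came nearest, with 42.2, 39 and 30.9 TPM in control XY and 16.9 and 23.7 TPM in E11.5 XY, a log2 change of 0.86 ± 0.25 (limma, adjusted p = 0.0652). In XX, Bag3 was called higher in culture, with 195 and 173 TPM in control XX, against 118 and 96.6 TPM in E11.5 XX. The log2 change was 0.78 ± 0.14 (limma, adjusted p = 0.00541), and it ended without control XX replicate 1, without E11.5 XX replicate 2, or with only the groups compared. This is 1 of 10 higher, where 7.36% of all genes tested were, and 0 of 10 lower, where 1.71% were. At an unadjusted p below 0.05, limma gave 2 higher and 1 lower, where 3950 of the 16133 genes tested passed in either direction. The median over all genes was 0.12, and their calls of 1187 higher and 276 lower became 474 higher and 378 lower with median-of-ratios scaling. Hsph1 had 122 and 145 TPM in control XX, against 92.9 and 95.1 TPM in E11.5 XX, and did not pass (0.49 ± 0.16; limma, adjusted p = 0.0692). Among 37 other cytosolic genes, 3 (8.11%) were higher in cultured XX, a share near the 7.36% of all genes. They were Bag2 at 0.75 ± 0.18, Chordc1 at 0.5 ± 0.14 and Bag1 at 0.37 ± 0.11 (limma, adjusted p of 0.0193, 0.0445 and 0.0482). The call of Bag2 was lost in 5 of 22 alternatives, that of Chordc1 in 16 and that of Bag1 in 17. Culture cannot be told apart here from dissection at the earlier stage.

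The test of whether the sex difference itself differed between culture and E11.5 called 0 of the 10 genes in either direction, where 0.192% of all genes were called positive and 1.14% negative. At an unadjusted p below 0.05, limma gave 1 positive and 2 negative, where 3355 of the 16133 genes tested passed in either direction. The median over all genes was -0.26, and their calls of 31 positive and 184 negative became 21 positive and 13 negative with median-of-ratios scaling. Among the 10, Hsph1 had the smallest adjusted p, with a difference between its log2 changes of -0.92 ± 0.21 (limma, adjusted p = 0.0539). For Bag3 it was -0.49 ± 0.19 (limma, adjusted p = 0.175).

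Across the 5 groups each gene had its own order of levels. Hspa1b ran from a mean of 19.2 TPM in Dfo XY, 13.3 in control XX and 11.8 in E11.5 XX, which overlapped as neighbours, down to 7.62 in control XY and 6.85 in E11.5 XY. Hspa1a spanned only 5.88 TPM in E11.5 XY to 11.2 TPM in E11.5 XX, and every pair of neighbouring groups overlapped. Dnajb1 was about as high in Dfo XY, at 54.3 ± 5.91 TPM (SD, n = 3), as in E11.5 XX, at 53.9 ± 2.06 TPM (SD, n = 2), followed without overlap by 44.2 in control XX, 39.1 in E11.5 XY and 35.2 in control XY. Bag3 averaged 184 TPM in control XX, 107 in E11.5 XX, 76.5 in control XY, 62.4 in E11.5 XY and 55.1 in Dfo XY, and only the last 2 overlapped. Hsph1 averaged 133 TPM in control XX, then 94 in E11.5 XX and 91.3 in E11.5 XY, which overlapped, then 68.5 in control XY and 39.5 in Dfo XY.

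Hspa8 averaged 3592 TPM in control XX, 3077 in E11.5 XX, 2571 in E11.5 XY, 2502 in control XY and 1923 in Dfo XY, and only E11.5 XY and control XY overlapped as neighbours. Hsp90aa1 lay between 705 TPM in control XY and 1129 TPM in control XX. Hspb1 was lowest in E11.5 XY at 20.3 TPM, and the 4 other groups overlapped as neighbours between 37.4 and 47 TPM. For Hspd1, between 233 TPM in Dfo XY and 403 TPM in control XX, and for Hspe1, between 199 TPM in Dfo XY and 383 TPM in E11.5 XY, every pair of neighbouring groups overlapped. The cytosolic genes stood lowest against the mitochondrial pair in E11.5 XY, where the within-library difference was -2.49 and -2.26, against -1.8 and -1.71 in E11.5 XX, -1.81 and -1.54 in control XX, and the control XY values given above.

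The genes whose levels followed the cytosolic 8 most closely over the 12 libraries, by Pearson's r of log2(TPM + 1) with their mean z-score among 10506 genes with a mean of at least 5 TPM and a name other than a predicted-gene or Rik label, were Prkcd (0.956), Ammecr1l (0.955), Eif3b (0.949), Ap3b1 (0.949) and Eef2 (0.947). For Hspd1 and Hspe1 they were Aatf (0.981), Nudc (0.973), Hnrnpa1 (0.969), Naca (0.969) and Sgol1 (0.967). These values describe the 12 libraries, which share the group structure and the scale of TPM.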

How the data were processed

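RNA-seq covered 12 libraries of NR5A1+ cells in 5 groups. The SMART-Seq Stranded Kit was used on total RNA, per the labels' protocols. The deposited values are TPM, 1 table per library with 24411 symbols, and per the submitters' processing notes the authors worked on mm10 with STAR 2.7.10b, RSEM and R 4.1.2. The RSEM version, annotation and strand setting were not given in the sources used here. Depth is unknown because TPM does not hold it, and no counting interval was computed.

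Positions come from GENCODE M21, in which 23376 symbols matched. From the deposited TPM, log2(TPM + 1) was tested with limma 3.58.1 in R 4.3.3, with 1 coefficient per group, all 12 libraries, a variance trend, and genes of at least 1 TPM in at least 2 libraries. Fold changes on this scale understate changes of low genes. P-values were adjusted by Benjamini-Hochberg over 16133 genes per comparison and called below 0.05. The method was also run on simulated libraries with independent errors. These lacked the closeness of replicates 1 and 2 and the shifts of TPM scale seen here, so they do not speak to those features. The adjusted p of Hspa1a and Hspa1b summed comes from the same fit with the pair as 1 gene.

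Same-numbered Dfo XY and control XY libraries deviated together from their group means (r across genes of 0.214, 0.119 and 0.335, each above 0.1). Nothing in the labels says what a number marks. Replicates 1 and 2 also matched crosswise, Dfo XY replicate 1 with control XY replicate 2 at 0.177 and Dfo XY replicate 2 with control XY replicate 1 at 0.144. The rule therefore sets replicate 3 apart but does not tell how numbers 1 and 2 pair. The main fit held no block. Alternatives were pseudocount 0.1, no filter, median-of-ratios scaling, quantile normalization, removal of the 50 most abundant genes, no variance trend, only the groups compared, a replicate block, averaging replicates 1 and 2 of Dfo XY and control XY, leaving out the 2 Dfo XY libraries that held Xist, and leaving out each library.

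The genes and pathway lists were chosen with earlier results of these data known. Named were the 10 genes, up to 4 called genes per pathway list by smallest adjusted p, Hsf1, Hsf2, Hspa9 and Hsp90ab1, and the 5 genes most like each class. Python 3.11.15 was used for descriptions. The labels name no batch.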

Additional observations from a re-analysis of the deposited data

How the results depend on the processing

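Of results for single genes under alternatives, 758 kept direction and side of the threshold, 199 lost the call, 3 gained it and 6 changed sign, all 6 for genes not called. With Dfo XY over control XY these were Hspb1 (-0.07) and Hspd1 (0.15) without the 2 libraries that held Xist, Hspd1 with median-of-ratios scaling (0.004), and 3 with single libraries left out. In those Hspa1a ran from -0.006 to 0.485 and Hsp90aa1 from -0.036 to 0.292, both lowest without Dfo XY replicate 3, and Hspd1 ran from -0.295 to 0.056, highest without control XY replicate 3. The number of the 10 genes lower in Dfo XY, 3, was 1 with median-of-ratios scaling, with no variance trend, with replicates 1 and 2 averaged and without the 2 libraries that held Xist. It ran from 1 (without control XY replicate 3) to 4 when single libraries were left out, and the number higher was 2 in each of these. The number lower in control XY than in control XX, 5, was 2 with median-of-ratios scaling and without the 50 most abundant genes, 3 with replicates 1 and 2 averaged, and 3 (without control XX replicate 2) to 7 with single libraries left out. Leaving out the 50 most abundant genes also took out Hspa8, so its call was absent there rather than lost. For E11.5 XY against XX the number lower, 1, was 0 with only the groups compared and with averaging, and 0 to 2 with libraries left out. For control XY against E11.5 XY the numbers, 0 and 0, were 1 higher with quantile normalization and without the 50 most abundant genes, 3 lower with the replicate block, and 0 to 1 higher and 0 to 4 lower with libraries left out, 4 being without control XY replicate 3. For control XX against E11.5 XX the number higher, 1, was 0 with only the groups compared and 0 to 2 with libraries left out, and the number lower, 0, was 1 with median-of-ratios scaling and with quantile normalization. For the difference between sex differences the number lower, 0, was 1 with the replicate block and 0 to 1 with libraries left out. In that test 3355 of all genes had an unadjusted p below 0.05. Cytosolic minus mitochondrial differences with libraries left out ran 0.247 to 0.482 for Dfo XY over control XY, -0.275 to -0.001 for control XY over control XX, -0.73 to -0.501 for E11.5 XY over XX, 0.44 to 0.697 for control XY over E11.5 XY and -0.049 to 0.213 for control XX over E11.5 XX. The cause of these shifts was not tested. The replicate block changed 2 calls in Dfo XY against control XY, Hspe1 (gained) and Hsbp1l1 (lost, limma adjusted p = 0.06, from 0.0208 to 0.14 over its alternatives). Called genes in all ran from 844 to 2664 for Dfo XY against control XY (2498 as reported), 614 to 4337 for control XY against control XX (4064), and 0 to 638 for E11.5 XY against XX (370). They ran from 185 to 1467 for control XY against E11.5 XY (913), 0 to 1677 for control XX against E11.5 XX (1463) and 8 to 708 for the difference between sex differences (215). With depth unknown, what the low levels of Hspa1a and Hspa1b can resolve is not known.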
